A study of Homo sapiens with 4 samples.

Results

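The transcripts described here are long intergenic noncoding RNAs with signal on the arrays. A probe set was included when its annotation gave 1 symbol, that symbol was LINC followed by digits or one of VHRT, MALAT1, NEAT1, H19, MEG3, PVT1, CCAT1, UCA1, HOTAIR and HOTTIP, and its deposited intensity reached 100 in at least 1 of the 4 arrays. This took 66 genes with 89 probe sets, out of 846 genes with 1112 probe sets that fitted by name, and out of 19775 genes with a probe set of 1 symbol and 54675 probe sets in all. The members were chosen by intensity itself, so their levels are given as a description.

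The 4 arrays, 1 per group, held total RNA of the HCT116 line, which was derived from a human colorectal carcinoma. The groups were cells with hairpin #2 against KSR1, cells with hairpin #1 against KSR1, cells with a non-targeting hairpin vector (shCTRL), and untransfected cells. KSR1 is a scaffold protein of the RAF-MEK-ERK kinase cascade. Per the labels' protocols, the hairpin vectors were introduced with lipofectamine and clones were selected with puromycin, so shCTRL and both KSR1 hairpin groups had passed transfection and selection and the untransfected cells had not; the sources used here do not say whether an array held 1 clone or a pool. There were no replicate arrays, so a difference between 2 arrays has no replicate check and carries no p-value, and vector, clone, culture and array cannot be told apart. A lower signal can come from fewer cells with the RNA or from less RNA per cell, which bulk arrays do not separate, and dim values cannot be told from background since no detection calls were used.

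Long intergenic noncoding RNAs are transcribed from loci between protein-coding genes and are usually capped, often spliced and not translated. Many stay in the nucleus, are present at low levels and are restricted to few cell types. Some bind chromatin regulators or splicing proteins, some pair with microRNAs or messenger RNAs, and for others only the act of transcription is known to matter.

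The arrays were alike in scale, with medians over all probe sets between 50.7 and 52.0 and 95th percentiles between 1395 and 1441. KSR1 on its brightest probe set had intensities of 171 with hairpin #2 and 141 with hairpin #1, against 211 in shCTRL and 209 in untransfected cells. Its other probe sets, 213767_at, 213769_at and 213770_at, were dim, at most 60.4. None of them had both hairpin arrays below both others, so lower KSR1 RNA rests on 1 probe set. Of 10 colon epithelium markers measured, 7 reached 100 in every array, VIL1 and LGALS4 stayed under 100, and the summed intensity of the list lay between 35745 and 45743. Of 10 fibroblast markers 1 did, COL1A1, with sums between 621 and 704 over the list, and of 8 leukocyte markers measured 0 did, with sums between 248 and 300.

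Few of the noncoding probe sets carried signal in these cells. Members were 8.0% of the probe sets that fitted by name, while 44.0% of all probe sets with 1 symbol reached 100 in at least 1 array. The highest intensity of a member over its 4 arrays had a median of 186, against 363 over all 21136 probe sets that reached 100, and 46 of the 89 members stayed under 200 in every array. There were 63 members at 100 or more in all 4 arrays, 14 in 2 or 3 arrays and 12 in only 1 array. Just under the threshold lay LINC00920, LINC01770, LINC02591 and 1 LINC02210 probe set, with highest intensities of 98.8, 99.1, 99.5 and 99.96, and just inside it lay LINC01278, LINC00424, LINC00992 and LINC01356, with 101.3, 101.3, 101.4 and 102.5. All 89 members matched a RefSeq gene of the biotype lncRNA by gene identifier.

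Of the noncoding RNAs included by name, UCA1, MALAT1, HOTTIP and VHRT had members. MEG3, an imprinted tumour suppressor RNA, had 10 probe sets with 1 symbol and none that reached 100, the highest value being 61.6 in shCTRL cells. PVT1, a neighbour of MYC, had 1 such probe set, with 35.9 and 28.9 for hairpins #2 and #1 against 29.8 in shCTRL and 33.9 in untransfected cells. Another 4 PVT1 probe sets were annotated to several symbols and were not analysed here. HOTAIR, a transcript of the HOXC cluster, was at most 12.2. HOTTIP, a transcript at the edge of the HOXA cluster, entered through 1 of 3 probe sets, with 108 and 127 for hairpins #2 and #1 against 111 in shCTRL and 130 in untransfected cells. NEAT1 and H19 had probe sets that were annotated to several symbols, and CCAT1 had no annotated probe set in the table used, so these RNAs were not analysed here.

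**Figure D1:**
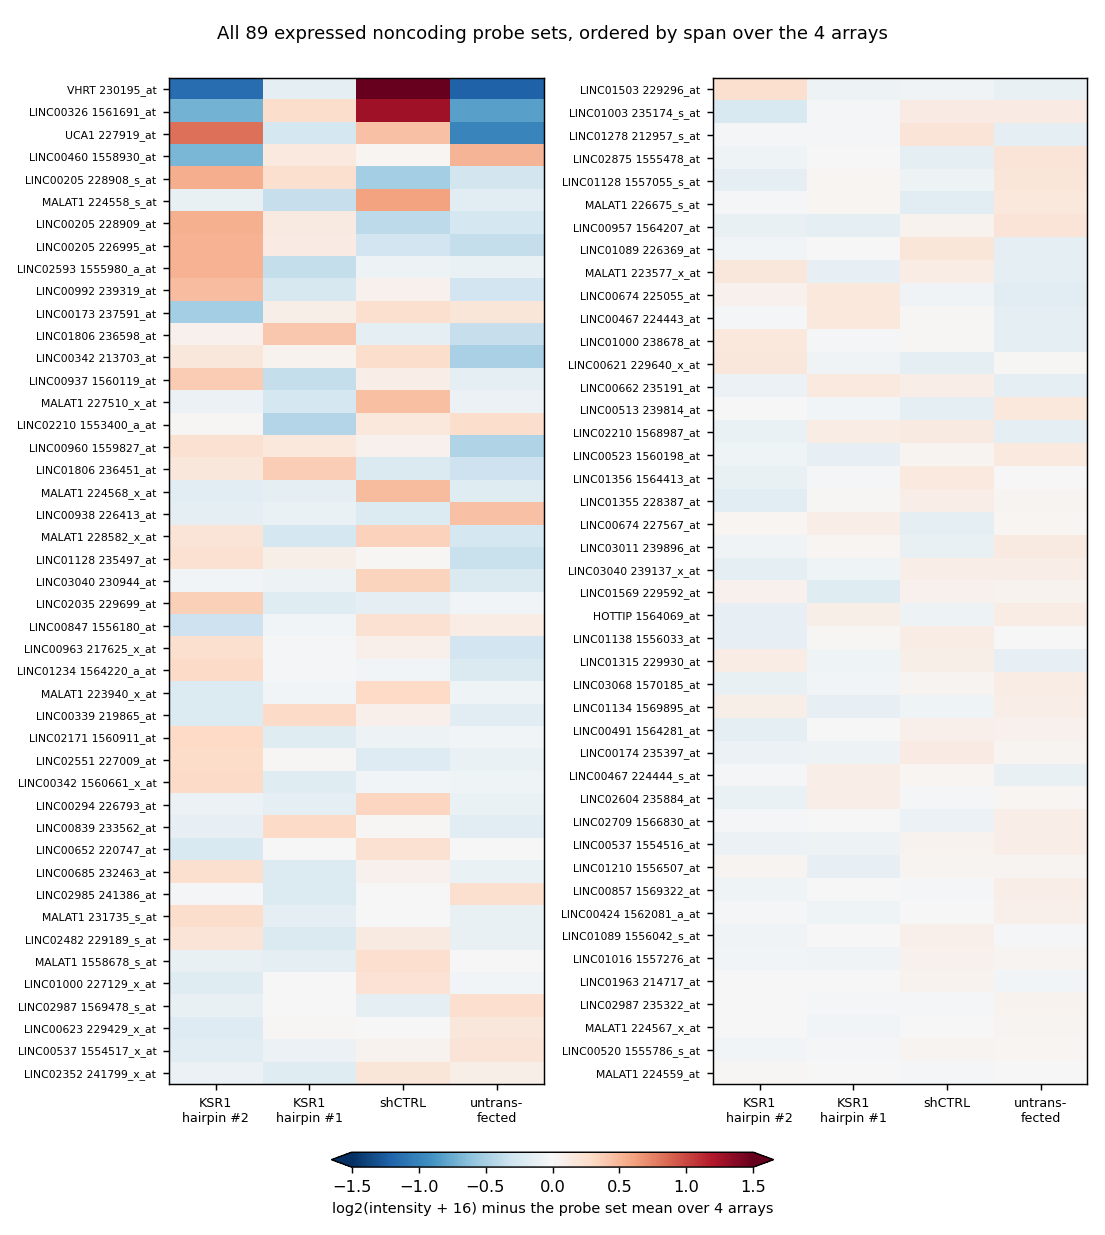
Colour shows log2(intensity + 16) of each of the 89 member probe sets in each array, minus that probe set's mean over the 4 arrays, with rows ordered by the span between the highest and the lowest array. VHRT, LINC00326, UCA1, LINC00460 and 1 LINC00205 probe set, at the top left, span 1 log2 unit or more, and most rows on the right are nearly uniform.

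Most members varied little, and so did most of all probe sets that reached 100. Differences are given as differences of log2(intensity + 16), a scale that understates differences of dim probe sets, and 1 log2 unit (2-fold) served as the size limit. The span between the highest and lowest array had a median of 0.36 log2 units over members and 0.33 over all probe sets that reached 100. It was under 0.5 for 61 members, which is 68.5% of members against 75.5% of all probe sets that reached 100. For 23 members it lay between 0.5 and 1. It was 1 or more for 5, which is 5.62% of members against 4.41% of all probe sets that reached 100. The narrowest spans were those of MALAT1 probe set 224559_at, with intensities of 175 and 174 for hairpins #2 and #1, 168 in shCTRL and 173 in untransfected cells, and of LINC00520, with 349, 351, 370 and 369 in the same order. MALAT1 probe set 224567_x_at, LINC02987 probe set 235322_at and LINC01963 followed with spans of 0.08, 0.09 and 0.10. LINC02987 had 109 and 106 for hairpins #2 and #1 on that probe set, against 107 in shCTRL and 114 in untransfected cells, and LINC01963 had 208 and 209, against 218 and 203. This describes these 5 probe sets and not every probe set of their genes, since the other LINC02987 probe set spanned 0.39 and the widest of MALAT1 0.95.

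The highest array of the 4 was shCTRL for 29 members, hairpin #2 for 25, untransfected for 25 and hairpin #1 for 10. The share highest in shCTRL was thus 32.6% of members, against 22.0% of all probe sets that reached 100, and the share highest in hairpin #1 was 11.2% of members, against 27% of all. These shares count probe sets and not genes. They also depend on the choice by intensity, since the 12 members that reached 100 in only 1 array are highest there by that rule. They are given as a description. MALAT1 alone gave 6 of the 29 members highest in shCTRL and 0 of the 10 highest in hairpin #1. Members under 200 in every array had a median span of 0.33, those whose highest value was between 200 and 500 had 0.45 and those above had 0.40, where all probe sets in the same ranges had 0.32, 0.35 and 0.31.

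VHRT, a transcript on chromosome 12 with no role given here, had the widest span of all members. Its intensity was 68.9 with hairpin #2 and 154 with hairpin #1, against 1058 in shCTRL and 64.9 in untransfected cells. Only shCTRL was high, hairpin #1 lay between, and hairpin #2 was close to untransfected cells. The log2 difference was -3.66 for hairpin #2 minus shCTRL, -2.66 for hairpin #1 minus shCTRL and 1.07 for hairpin #1 minus untransfected cells. It entered through 1 probe set, and 2 of its 4 arrays lay under 100.

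LINC00326, on chromosome 6, was likewise highest in shCTRL, with hairpin #1 next. Its intensity was 80.2 with hairpin #2 and 173 with hairpin #1, against 364 in shCTRL and 73.6 in untransfected cells. The log2 difference was -1.98 for hairpin #2 minus shCTRL and -1.01 for hairpin #1 minus shCTRL, and hairpin #1 stood 1.07 above untransfected cells. For VHRT and LINC00326 both KSR1 hairpin arrays were below shCTRL. The order of the levels in both was shCTRL, then hairpin #1, then hairpin #2 with untransfected cells. The last 2 arrays differed by 0.07 and 0.10 log2 units at intensities under 100, so no order is read between them.

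UCA1, an RNA first described in bladder carcinoma and known from several other carcinomas, lies on chromosome 19 and was bright in every array. Its intensity was 6734 with hairpin #2 and 3156 with hairpin #1, against 5160 in shCTRL and 1910 in untransfected cells. All 3 arrays of transfected and selected cells were above the untransfected array, by 1.81 log2 units for hairpin #2, 0.72 for hairpin #1 and 1.43 for shCTRL. The hairpins stood on opposite sides of shCTRL, hairpin #2 at 0.38 and hairpin #1 at -0.71, and differed from each other by 1.09. The highest array was 3.53 times the lowest.

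LINC00460, known for raised levels in several carcinomas, ran the other way from UCA1 in the hairpin #2 and untransfected arrays. Its intensity was 122 with hairpin #2 and 231 with hairpin #1, against 211 in shCTRL and 300 in untransfected cells. Untransfected cells were highest and hairpin #2 was lowest, -1.19 log2 units from untransfected and -0.72 from shCTRL, while hairpin #1 and shCTRL differed by 0.12. Promoter windows are shown for the 4 members of widest span that the RefSeq promoter table (GRCh38.p14) holds, so that the sequence ahead of each variable transcript can be read. Each window is 250 bases before to 50 after the gene's start, in the direction of the gene, and capitals mark matches on either strand to 6 short motifs. These are the TATA box TATAAA, the CCAAT box CCAAT, the AP-1 motif TGANTCA, the E-box CACGTG, the ETS motif CCGGAA and the GC box GGGCGG. The LINC00460 window at chr13:106376314-106376613 (plus strand) held 2 AP-1 matches, found in 7.76% of all promoters as at least 1 match, and 1 CCAAT box, found in 35.7%.
LINC00460: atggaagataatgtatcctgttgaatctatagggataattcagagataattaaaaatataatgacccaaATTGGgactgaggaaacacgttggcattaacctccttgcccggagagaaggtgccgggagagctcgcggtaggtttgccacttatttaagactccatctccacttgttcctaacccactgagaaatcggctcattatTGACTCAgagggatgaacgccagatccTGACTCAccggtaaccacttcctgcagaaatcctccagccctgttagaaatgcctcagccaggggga
It had a GC content of 46.7%, 8 CG pairs and no match to the other 4 motifs. A match is a run of letters and shows no binding.

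LINC00205, on chromosome 21, was the member whose probe sets most clearly set both KSR1 hairpin arrays apart. Probe set 228908_s_at had 173 with hairpin #2 and 137 with hairpin #1, against 75.2 in shCTRL and 91.1 in untransfected cells. Probe set 228909_at had 216 and 161 for hairpins #2 and #1, against 106 and 118 for shCTRL and untransfected cells. Probe set 226995_at had 320 and 240 for the hairpins, against 177 and 167. In all 3 the hairpin #2 array was highest, hairpin #1 was next, and neither hairpin array overlapped the others. The log2 difference of both hairpin arrays minus both others was 0.79, 0.66 and 0.64 (SE 0.16, 0.17 and 0.16). By limma across all 21136 probe sets that reached 100, the unadjusted p-values were 0.0050, 0.012 and 0.013, and the adjusted p was 0.67 for each, so none passed. Probe set 228908_s_at reached 100 in the hairpin arrays only, so it entered the test through the arrays in which it is higher. The 3 probe sets read 1 transcript on the same arrays and are not independent.

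The window ahead of LINC00205, at chr21:45287802-45288101 (plus strand), was rich in GC.
LINC00205: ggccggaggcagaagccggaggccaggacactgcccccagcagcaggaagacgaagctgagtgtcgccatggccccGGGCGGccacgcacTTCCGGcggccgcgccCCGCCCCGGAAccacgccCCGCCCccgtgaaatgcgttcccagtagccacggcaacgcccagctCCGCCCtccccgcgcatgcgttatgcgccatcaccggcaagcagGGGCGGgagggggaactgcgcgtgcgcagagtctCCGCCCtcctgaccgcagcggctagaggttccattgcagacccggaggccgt
It had a GC content of 72.3% and 34 CG pairs, with 6 GC boxes and 2 ETS matches. At least 1 GC box was found in 44.6% of all promoters and at least 1 ETS match in 17.6%. One GC box and one ETS match share a base.

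**Figure D2:**
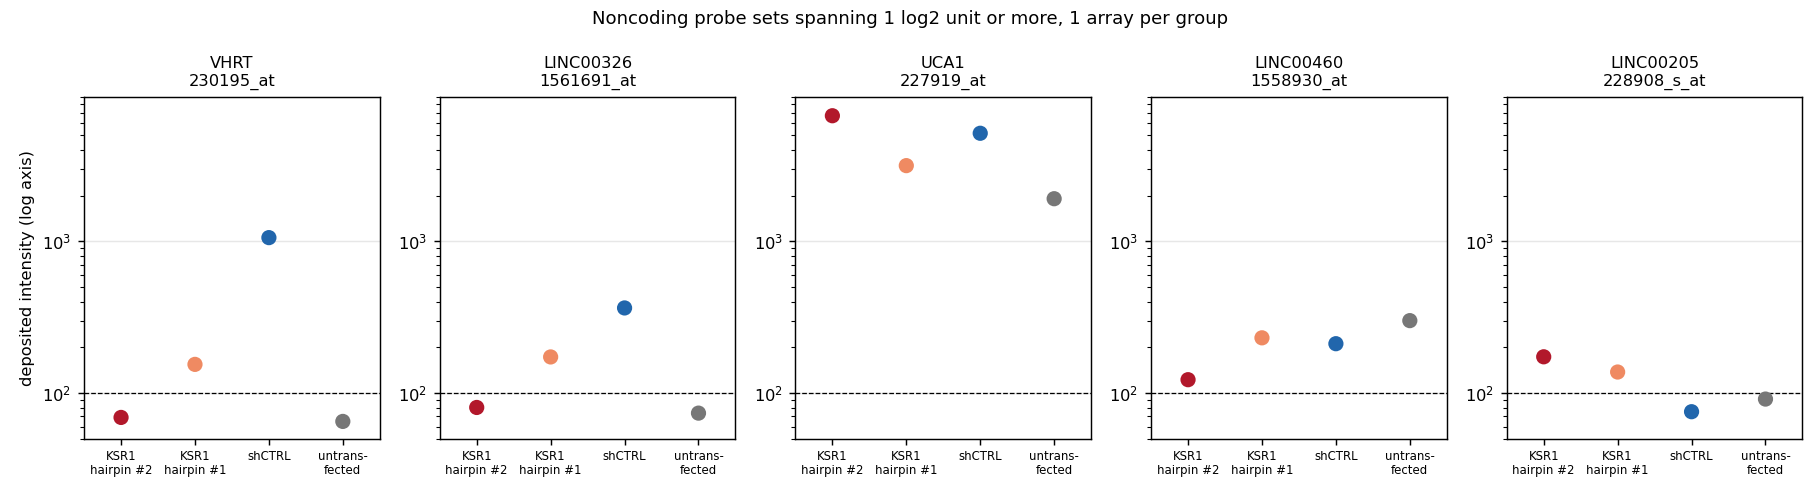
Each panel gives the deposited intensity on a log axis for 1 of the 5 probe sets that span 1 log2 unit or more, 1 point per array. The dashed line is the threshold of 100. VHRT and LINC00326 peak in shCTRL, UCA1 in hairpin #2, LINC00460 in untransfected cells, and LINC00205 is higher in both hairpin arrays.

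LINC01806, on chromosome 2, was also higher in both KSR1 hairpin arrays on each of its 2 probe sets. Probe set 236451_at had 177 and 204 for hairpins #2 and #1, against 131 in shCTRL and 121 in untransfected cells. Probe set 236598_at had 121 and 158 for the hairpins, against 103 and 87.4. Here hairpin #1 was higher than hairpin #2, the reverse of LINC00205. The log2 differences of both hairpins minus both others were 0.54 (SE 0.12) and 0.47 (SE 0.17), with unadjusted limma p-values of 0.0080 and 0.038 and an adjusted p of 0.67 for both. LINC00674, on chromosome 17, had smaller differences of 0.21 and 0.13 on its 2 probe sets, with no overlap of the hairpin arrays and the others.

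Counted over all members, 12 probe sets had both KSR1 hairpin arrays above both others and 20 had both below, which is 13.5% and 22.5% of members. Among all probe sets that reached 100, 25.2% had both hairpin arrays above and 15.2% had both below. Some counted members reached 100 only on the side where they were higher. Examples are LINC00205 probe set 228908_s_at among those above, and LINC00424 and LINC01356 among those below. The member counts thus depend on the choice by intensity and are given as a description. Among the 20 were LINC00173, with 297 and 458 for hairpins #2 and #1 against 512 in shCTRL and 492 in untransfected cells, and LINC00847, with 108 and 134 against 165 and 150. None was parted by the size limit: in 0 members the hairpin pair stood 1 log2 unit clear of the other pair, above or below, where 0.0331% of all probe sets did so above and 0.0284% below. By limma 0 of the 21136 probe sets passed, with 1511 at an unadjusted p under 0.05, which is 7.15%. Of these 5 were members, the LINC00205 and LINC01806 probe sets, all higher with the hairpins, where 4.56% of all probe sets were higher and 2.59% lower. The smallest adjusted p over members was 0.67, and by limma VHRT had 0.79, LINC00326 0.88, UCA1 0.80 and LINC00460 0.70. The limma test rests on 2 residual degrees of freedom per probe set. Its spread comes from the distance between the hairpins and between shCTRL and untransfected cells. That spread is moderated toward the spread over all probe sets tested.

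Single arrays were then compared by the size limit. In shCTRL minus untransfected, 3 members were higher, VHRT (3.73), LINC00326 (2.08) and UCA1 (1.43), and 0 were lower, against 0.44% and 0.459% of all probe sets that reached 100. The lowest difference was that of LINC00938 at -0.64, with 146 and 150 for hairpins #2 and #1 and 139 in shCTRL against 225 in untransfected cells. It was thus lower in each of the 3 arrays of transfected and selected cells, with log2 differences of -0.57 for hairpin #2, -0.54 for hairpin #1 and -0.64 for shCTRL, although 0 members reached the size limit in all 3, where 0.0379% of all probe sets were higher and 0.156% lower. The median over members was 0.07, and 0.02 over all probe sets that reached 100. VHRT was included by name, and VHRT and LINC00326 reached 100 only in the shCTRL and hairpin #1 arrays. Counts that hold them, here and in the comparisons below, thus depend on how members were chosen. They are given as a description and are no evidence about these RNAs as a class.

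For hairpin #1 minus shCTRL, 0 members were higher and 2 were lower, VHRT and LINC00326, against 0.132% and 0.416% of all probe sets. LINC00326 lay at the limit and was within it after each array was centred on its median. For hairpin #2 minus shCTRL, 1 was higher, the LINC00205 probe set 228908_s_at (1.05), and the same 2 were lower, against 1.11% and 1.08%. The LINC00205 probe set was within the limit with a pseudocount of 64, at 0.77, and was not counted with 1 probe set per symbol or with a threshold of 200. These comparisons share the shCTRL array with each other and with the one above, so the shCTRL signal of VHRT and LINC00326 enters all 3. The member medians were -0.09 for hairpin #1 and -0.04 for hairpin #2, where all probe sets that reached 100 had 0.03 and 0.02, and 58 and 50 of the 89 members were below shCTRL. MALAT1 probe sets made up 9 of the 58 and 6 of the 50. The share of all probe sets below shCTRL was not counted, so the 58 and 50 are a description only.

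For hairpin #2 minus hairpin #1, UCA1 was higher (1.09) and VHRT was lower (-1.0), against 1.07% and 0.828% of all probe sets. VHRT sat at the limit and was within it after quantile normalization. LINC02593, on chromosome 1, came next after UCA1 at 0.87, with 141 for hairpin #2 and 69.7 for hairpin #1, against 87.8 in shCTRL and 86.5 in untransfected cells, and it reached 100 in the hairpin #2 array only. Its window at chr1:919643-919942 (minus strand) held 3 CCAAT boxes and 1 GC box.
LINC02593: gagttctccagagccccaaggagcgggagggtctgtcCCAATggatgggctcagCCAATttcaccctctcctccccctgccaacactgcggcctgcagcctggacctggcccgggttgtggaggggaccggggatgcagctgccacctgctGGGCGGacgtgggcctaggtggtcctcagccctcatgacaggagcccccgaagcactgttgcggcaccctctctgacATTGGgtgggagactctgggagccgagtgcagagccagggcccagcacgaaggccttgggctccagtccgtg
The GC content was 66.7%, with 11 CG pairs.

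**Figure D3:**
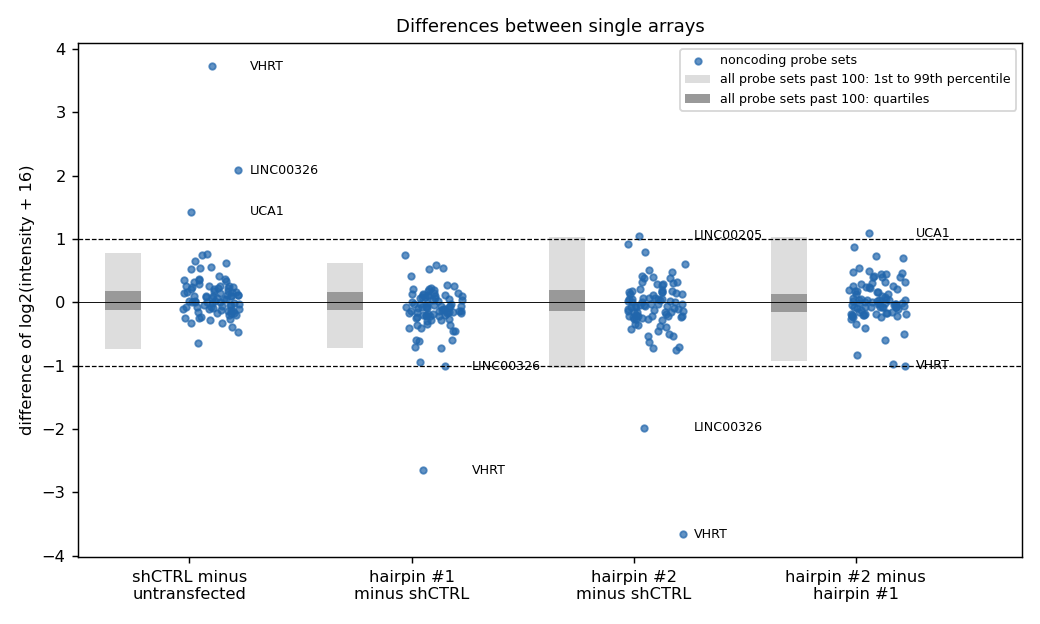
Points are the 89 member probe sets, as differences of log2(intensity + 16) between 2 arrays for each of 4 comparisons, with light and dark bars for the 1st to 99th percentile and the quartiles of all 21136 probe sets that reached 100. Dashed lines mark 1 log2 unit. VHRT reaches 3.73 in shCTRL minus untransfected and -3.66 in hairpin #2 minus shCTRL, and most members lie within the light bars.

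MALAT1, an abundant RNA of nuclear speckles whose 3' end is formed by RNase P, offered 11 member probe sets out of 12 and so the closest look at agreement within a transcript. They did not agree. In 6 of them shCTRL was the highest array, in 3 hairpin #2 and in 2 untransfected cells. Probe set 224558_s_at, the widest, had 257 and 215 for hairpins #2 and #1, against 431 in shCTRL and 248 in untransfected cells. The brightest, 1558678_s_at, had 1626 and 1578 for the hairpins, against 2095 and 1759. Both place shCTRL above the other arrays.

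Some other MALAT1 probe sets showed no such distance. Probe set 224567_x_at had 773 and 750 for hairpins #2 and #1, against 770 in shCTRL and 797 in untransfected cells, and 226675_s_at had 197 and 207, against 179 and 228, with shCTRL lowest. Over the 11, shCTRL minus untransfected ran from -0.33 to 0.76 with a median of 0.26 and 8 above 0, and hairpin #1 minus shCTRL ran from -0.95 to 0.20 with a median of -0.34 and 9 below 0. For hairpin #2 minus shCTRL the range was -0.71 to 0.28, with 6 below 0. The suffixes _x_at and _s_at mark probe sets whose probes can match further transcripts, which applied to 14 and 13 of the 89 members, so values of such probe sets are uncertain as readings of 1 gene. The first of 2 MALAT1 starts that the promoter table lists, at chr11:65497488-65497787 (plus strand), is shown beside the windows above.
MALAT1: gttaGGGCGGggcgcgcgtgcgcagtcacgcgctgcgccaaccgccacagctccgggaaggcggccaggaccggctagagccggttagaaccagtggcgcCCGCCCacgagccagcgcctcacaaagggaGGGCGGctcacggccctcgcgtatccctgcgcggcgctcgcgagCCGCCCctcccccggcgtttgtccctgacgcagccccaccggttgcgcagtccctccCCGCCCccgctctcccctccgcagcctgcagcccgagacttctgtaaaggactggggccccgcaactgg
It held 5 GC boxes and no match to the other 5 motifs, with a GC content of 73.7% and 37 CG pairs.

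**Figure D4:**
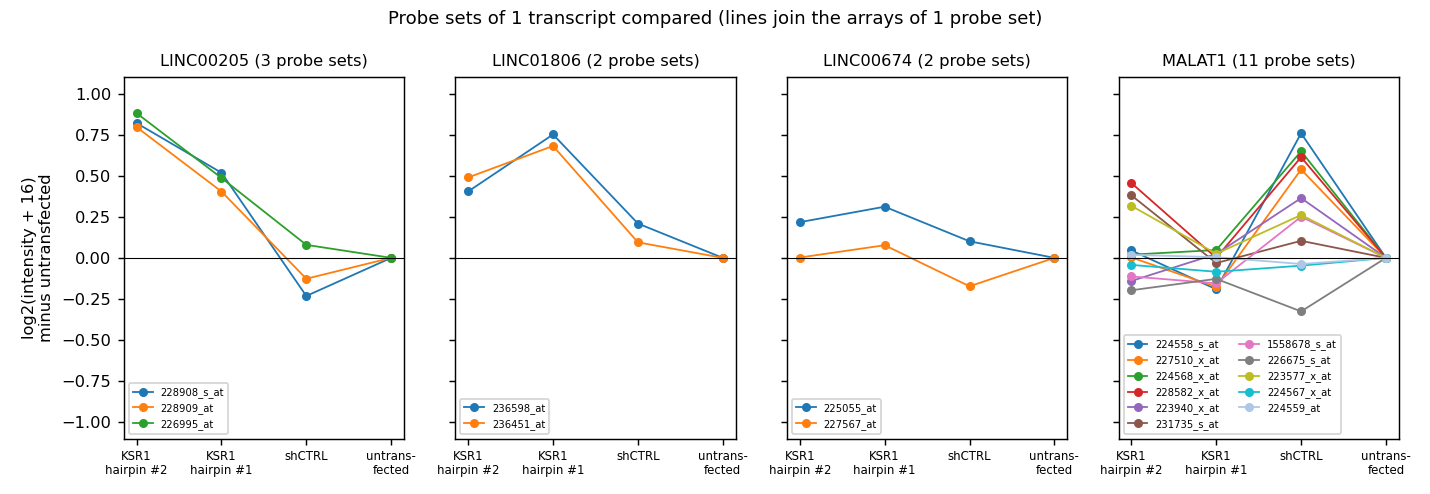
Each line is 1 probe set, plotted as log2(intensity + 16) minus its value in untransfected cells, for LINC00205 (3 probe sets), LINC01806 (2), LINC00674 (2) and MALAT1 (11). The LINC00205 and LINC01806 lines run together with both hairpin arrays at the top, whereas the 11 MALAT1 lines spread in shCTRL from -0.33 to 0.76.

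Members with a span between 0.5 and 1 log2 unit differed in which array stood apart. LINC00992 had 101 with hairpin #2 and 56.2 with hairpin #1, against 72.5 in shCTRL and 53.5 in untransfected cells, and LINC00937 had 140 and 77.3, against 111 and 92.9. In both, hairpin #2 was highest, and hairpin #1 was below shCTRL. LINC00960 had 119 and 111 for hairpins #2 and #1, against 104 in shCTRL and 67.5 in untransfected cells, so only untransfected cells were low. LINC02210 on probe set 1553400_a_at had 167 and 118 for the hairpins, against 187 and 202, with hairpin #1 lowest. LINC01234, known for raised levels in several carcinomas, had 540 and 430 for the hairpins, against 428 in shCTRL and 375 in untransfected cells.

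Few members were bright. Only 4 member probe sets reached 1000, those of VHRT and UCA1, 1 of MALAT1 and 1 of LINC00623. LINC00623 had 917 with hairpin #2 and 1065 with hairpin #1, against 1051 in shCTRL and 1188 in untransfected cells, and LINC00621 had 785 and 670, against 634 and 703. Both were read by _x_at probe sets.

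There were 13 symbols with more than 1 member probe set. The probe sets agreed on the highest array for LINC00205, LINC00467, LINC00537, LINC00674, LINC01089, LINC01806 and LINC02987. They disagreed for LINC00342, LINC01000, LINC01128, LINC02210 and LINC03040 as well as MALAT1. LINC01000 had 468 and 536 for hairpins #2 and #1 on one probe set, against 621 in shCTRL and 515 in untransfected cells, but 171 and 148 on the other, against 154 and 136.

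The protein-coding genes next to the 5 widest members were examined on their brightest probe sets, as neighbours in the RefSeq gene order. The neighbours of VHRT are MYL2, a cardiac myosin light chain, and CUX2, a homeobox transcription factor. Both were dim in every array, at most 46.2 and 24.9, and their spans of 0.32 and 0.25 were small beside that of VHRT. RPS12, a ribosomal protein gene before LINC00326, lay between 17810 and 18412, a span of 0.05. OR10H1, an olfactory receptor gene beside UCA1, was at most 42.2, and DAOA beside LINC00460 at most 18.8. EFNB2, an ephrin ligand on the other side of LINC00460, had 1197 and 1157 for hairpins #2 and #1, against 1051 in shCTRL and 1295 in untransfected cells.

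LINC00205 lies between POFUT2, a protein O-fucosyltransferase, and COL18A1, a basement membrane collagen. POFUT2 had 158 and 161 for hairpins #2 and #1, against 148 in shCTRL and 157 in untransfected cells, a span of 0.10. COL18A1 had 140 with hairpin #2 and 371 with hairpin #1, against 368 in shCTRL and 188 in untransfected cells. Its hairpin #2 array stood at -1.30 log2 units from shCTRL and its hairpin #1 array at 0.01, whereas both hairpin arrays of LINC00205 were above shCTRL. The remaining neighbours, both uncharacterised loci, had no probe set with a value here.

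The promoter windows of members varied widely in base composition, which the choice by intensity did not use. Of the 66 symbols 52 had an entry, and the GC content of these windows had a median of 59.5% (quartiles 50.1% and 67.4%, range 32.3% to 78.0%). Of the genes that fitted by name but stayed under 100, 538 had an entry, with a median of 48.0% (quartiles 42.0% and 57.3%). The others of that group had no entry and are left out. The median was 50% over all 11462 lncRNA genes with an entry and 62.7% over all 15842 protein-coding genes with one. At least 10 CG pairs were found in 29 of 52 member windows, 55.8%, against 26.0% of the windows of genes under 100, 32.4% of lncRNA windows and 56.0% of all 27305 windows, so the member share was that of all promoters. GC boxes stood in 51.9% of member windows, against 20.1% for genes under 100 and 44.6% of all windows. CCAAT boxes stood in 59.6%, against 35.9% and 35.7%, and ETS matches in 19.2%, against 8.55% and 17.6%. The member shares of GC boxes and ETS matches were thus nearer to those of all promoters than to those of genes under 100, while that of CCAAT boxes was above both. In lncRNA windows the shares were 25.4% for GC boxes, 34.8% for CCAAT boxes and 10.4% for ETS matches. TATA boxes stood in 17.3% of member windows, against 17.1% for genes under 100 and 12% of all windows, and AP-1 motifs in 11.5%, against 11.5% and 7.76%. E-boxes stood in 9.62%, against 6.13% and 7.43%. GC boxes and CG pairs follow base composition, and genes are not replicates, so these shares are given with no test. VHRT, LINC00326 and UCA1 were among the 14 symbols with no entry.

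**Figure D5:**
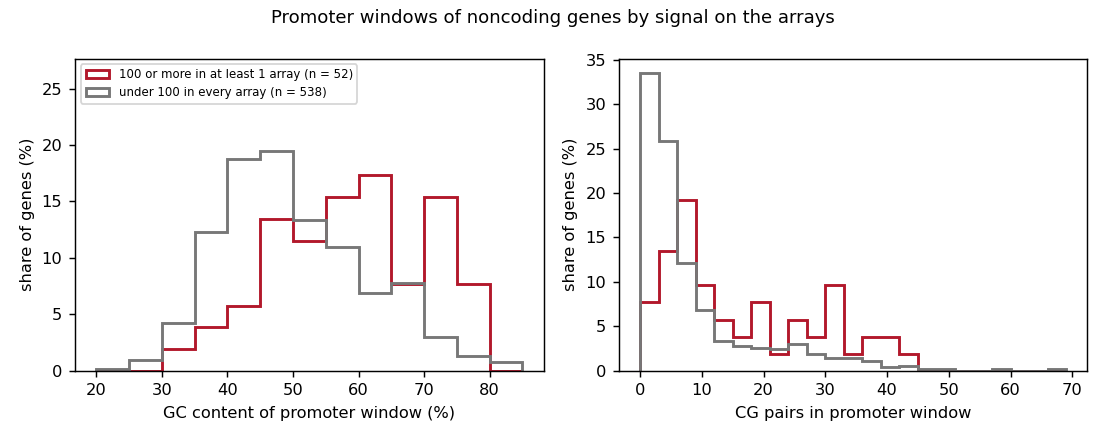
Histograms give the share of genes by GC content (left) and by the number of CG pairs (right) of the promoter window. Only genes with a promoter entry are shown, 52 that reached 100 in at least 1 array and 538 that did not. The distribution of the 52 genes is shifted to the right of the other in both panels, with medians of 59.5% and 48.0% GC.

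Genes of proteins that work with long noncoding RNAs were taken from 5 lists, which held paraspeckle proteins, nuclear speckle proteins, chromatin partners, RNase P with tRNase Z, and nuclear RNA decay factors. Of their 37 genes 35 had a probe set, all 35 reached 100, and 0 spanned 1 log2 unit, where 4.41% of all probe sets that reached 100 did. With so few genes, this count lies near that share. Both hairpin arrays were above both others for 12 of them and below for 2, where 25.2% of all probe sets were above and 15.2% below. SRSF3, a splicing factor of nuclear speckles, had 5690 and 5096 for hairpins #2 and #1, against 4181 in shCTRL and 3371 in untransfected cells. JARID2, a component of a Polycomb complex, had 777 and 648 for the hairpins, against 862 and 1182. SFPQ, a paraspeckle protein, had 2245 and 2213 for the hairpins, against 1639 and 1697, RPP38 of RNase P spanned 0.49 and ZCCHC8 of the nuclear exosome targeting complex 0.42.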

How the data were processed

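Total RNA was hybridised to 4 Affymetrix arrays, 1 per group, each with 54675 probe sets. The deposited values are intensity values on a linear scale, between 4.72 and 26251, 1 per probe set and array. How the authors corrected, summarised and normalized them was not given in the sources used here, and detection calls were not used. Precision is limited by the small number of arrays.

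From these, log2(intensity + 16) was computed with no further scaling. Names came from the platform annotation, in which 41097 had 1 symbol, 1801 several and 11777 none. RefSeq tables (GRCh38.p14) gave biotypes, gene order and promoter windows. Where a gene had several starts, the first listed was used. Limma 3.58.1 in R 4.3.3 (lmFit, eBayes, Benjamini-Hochberg) compared both KSR1 hairpin arrays with both others over the 21136 probe sets that reached an intensity of 100, and was tested on simulated data. Its p-values measure the spread between these samples only. Python 3.11.15 did the rest.

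The members, lists and limits were chosen with earlier results of these data known. The rule for naming took the symbols included outright, every member that spans 1 log2 unit, the 5 narrowest, 4 on each side of the threshold, neighbours of the widest, and the widest of each list. Some of these are given by their highest value or span only. Others named, among them LINC01806, LINC00674, LINC00938, LINC00173, LINC00847, LINC01000, LINC02593, LINC00623, LINC00621 and those with spans between 0.5 and 1, were chosen after their values were seen. Alternatives covered pseudocounts, filters, scaling, 1 probe set per symbol and leaving out arrays.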

Additional observations from a re-analysis of the deposited data

Results flagged for a closer look

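UCA1 stood out because the KSR1 hairpins lay on opposite sides of shCTRL and 1.09 log2 units apart, hairpin #2 at 0.38 and hairpin #1 at -0.71. The difference between the hairpins was not tested, since each had 1 array.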

How the results depend on the processing

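VHRT, LINC00326 and UCA1 stayed past the size limit in shCTRL minus untransfected under every alternative run. For hairpin #1 minus shCTRL the count of 2 became 1, VHRT alone, with a pseudocount of 64 and with each array centred on its median, since LINC00326 lay at -1.01. For hairpin #2 minus hairpin #1 the count of 2 became 4 with a pseudocount of 1, which added LINC00326 and LINC02593, and 1, UCA1 alone, with a pseudocount of 64 and after quantile normalization. Leaving out each array in turn gave between 0 and 2 members parted by 1 log2 unit between the hairpin arrays and the others. The 2 were VHRT and LINC00326 without the untransfected array, both lower than shCTRL. For hairpin #2 minus shCTRL the count of 3 became 2 with a pseudocount of 64, 1 probe set per symbol or a threshold of 200, each without LINC00205, and 4 with a pseudocount of 1 (a second LINC00205 probe set) or no filter (LINC01133). Limma called 0 members under every alternative. Differences under other pseudocounts and scalings were checked for member probe sets of the symbols included outright and those that span 1 log2 unit or more. Other members named above were not part of this check. Of the differences checked, 267 stayed within 1 SD of all probe sets from the reported value and 0 of those past the size limit changed sign. The 5 that moved further were VHRT (3.12 in shCTRL minus untransfected, -2.36 in hairpin #1 minus shCTRL and -3.08 in hairpin #2 minus shCTRL) and LINC00326 (1.64 in shCTRL minus untransfected and -1.57 in hairpin #2 minus shCTRL), all with a pseudocount of 64. No paired analysis was possible because each group has 1 array. With 1 array per group, signals near 100 limit what can be told apart from background.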

Other observations

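Other classes of noncoding RNA were read by symbol, each gene on its brightest probe set. Of 781 antisense transcripts, named with the ending AS and digits, 97 reached 100 in at least 1 array, and 2 of them spanned 1 log2 unit, where 4.41% of all probe sets that reached 100 did. KLRK1-AS1, on chromosome 12, had 31.9 with hairpin #2 and 105 with hairpin #1, against 172 in shCTRL and 37.9 in untransfected cells, so shCTRL was highest and hairpin #1 next. NR2F1-AS1, on chromosome 5 and named after its values were seen, had 112 with hairpin #2 and 304 with hairpin #1, against 363 in shCTRL and 302 in untransfected cells, with hairpin #2 alone low. Among the 97, both hairpin arrays lay above both others for 11 and below for 25, where 25.2% and 15.2% of all probe sets that reached 100 did.

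Of 49 host genes of small RNAs, 15 reached 100 and 0 spanned 1 log2 unit. At the 4.41% found over all probe sets that reached 100, a count of 0 among so few genes says nothing about the class. MIR210HG, the host of the hypoxia-induced microRNA miR-210, varied most, with 155 and 157 for hairpins #2 and #1, against 217 in shCTRL and 244 in untransfected cells.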
